A study of Mus musculus with 17 samples.

Results

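The stria vascularis ion transport genes were followed here as a set of 9 genes, picked by symbol from the 35285 rows of the expression table: Kcnq1, Kcne1, Kcnj10, Slc12a2, Atp1b2, Bsnd, Cldn11, Esrrb and Slc26a4. All 9 were found. The rule uses no measured value, although the set was drawn up with earlier results of these data known. Cochlear RNA was sequenced from 17 wild-type male C57BL/6J mice that were 8 weeks old at the start, with 1 library per mouse. The control group (n = 3) received saline without noise. The NE group (n = 7) heard noise for 2 h, in the band from 8 to 16 kHz and at 100 dB SPL, and the brimonidine group (n = 7) had the same noise together with 3 intraperitoneal injections of brimonidine, an alpha-adrenergic receptor agonist, at 1 mg/kg. Cochleae were collected 2 days after the exposure. The labels call the noise broadband and give the cell type as interstitial cells. The study's methods name cochleae in the RNA sequencing section and BM tissues in the PCR section as the source of the sequenced RNA, so how much lateral wall the samples held is not settled by them. None of the 17 libraries had brimonidine without noise, so here the drug was compared only on top of noise.

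The stria vascularis is the epithelium of the cochlear lateral wall that pumps potassium into the endolymph and keeps that fluid at a positive potential, which drives the current through hair cells. Potassium is taken up by the marginal cells through the Na-K-ATPase and a cotransporter, and leaves them through an apical channel. Intermediate cells supply potassium through another channel, and basal cells close the compartment with tight junctions.

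Kcnq1 encodes the pore of the apical potassium channel of marginal cells, and Kcne1 its accessory subunit. Kcnj10 encodes the inwardly rectifying potassium channel of intermediate cells. Slc12a2 encodes the sodium, potassium and chloride cotransporter of the basolateral marginal cell membrane, and Atp1b2 a beta subunit of the Na-K-ATPase. Bsnd encodes barttin, which the basolateral chloride channels need. Slc26a4 encodes pendrin, an anion exchanger of the epithelial cells that border the stria. Cldn11 encodes the tight junction claudin of basal cells. Esrrb encodes a nuclear receptor of marginal cells that binds DNA at estrogen-related receptor elements.

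In the coordinates of mm10, Kcnq1 (ENSMUSG00000009545) lay at chr7:143106362-143427042 on the plus strand, Kcne1 (ENSMUSG00000039639) at chr16:92346001-92359468 on the minus strand and Kcnj10 (ENSMUSG00000044708) at chr1:172341210-172374085 on the plus strand. Atp1b2 (ENSMUSG00000041329) lay at chr11:69599736-69605942 on the minus strand, Bsnd (ENSMUSG00000025418) at chr4:106483456-106492283 on the minus strand and Slc26a4 (ENSMUSG00000020651) at chr12:31519827-31559969 on the minus strand. Cldn11 (ENSMUSG00000037625) lay at chr3:31149920-31164324 and Esrrb (ENSMUSG00000021255) at chr12:86361117-86521628, both on the plus strand. Slc12a2 carried the identifier ENSMUSG00000024597. All 9 were protein coding. Only Kcnq1 shared exonic bases with another annotated gene, the antisense transcript Kcnq1ot1. The overlap was 121 bases, or 2.96% of the Kcnq1 exons. Kcnq1ot1 was measured at 0.0819 to 0.363 FPKM (fragments per kilobase of exon, scaled to the total of the library).

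RefSeq start sites (build GRCm38.p6) were held for 4 of the 9 genes, Kcnj10, Cldn11, Slc26a4 and Esrrb, with 2 sites for Esrrb. The 250 bases before the start are printed for 3 genes with different patterns against control: relative to the other members Kcnj10 was lower in NE and brimonidine, the mean of Slc26a4 was higher in both, and Cldn11 overlapped. They are read 5′ to 3′ on the strand of the gene, and capitals mark the core promoter motifs found in them. The regions were chr1:172340960-172341209 (plus) for Kcnj10, chr3:31149670-31149919 (plus) for Cldn11 and chr12:31559985-31560234 (minus) for Slc26a4.
Kcnj10: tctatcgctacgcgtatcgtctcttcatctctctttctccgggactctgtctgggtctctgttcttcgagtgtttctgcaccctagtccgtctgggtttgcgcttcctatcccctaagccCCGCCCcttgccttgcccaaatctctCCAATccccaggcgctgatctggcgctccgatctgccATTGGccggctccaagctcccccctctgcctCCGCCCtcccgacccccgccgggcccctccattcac
Cldn11: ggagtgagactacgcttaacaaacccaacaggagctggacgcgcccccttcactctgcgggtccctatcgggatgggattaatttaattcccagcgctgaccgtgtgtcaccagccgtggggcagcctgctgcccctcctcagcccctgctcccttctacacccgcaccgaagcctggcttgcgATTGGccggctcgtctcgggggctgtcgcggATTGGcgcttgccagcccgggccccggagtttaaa
Slc26a4: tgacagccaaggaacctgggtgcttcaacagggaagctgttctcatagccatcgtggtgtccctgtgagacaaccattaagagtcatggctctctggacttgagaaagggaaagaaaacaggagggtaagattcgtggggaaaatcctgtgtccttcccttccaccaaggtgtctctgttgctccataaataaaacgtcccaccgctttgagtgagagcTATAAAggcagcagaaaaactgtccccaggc
Both strands were searched, and the motifs did not overlap each other. The Kcnj10 region held CCAAT at -104 and, on the opposite strand, at -67, besides 2 copies of GGGCGG. The Cldn11 region held 2 copies of CCAAT on the opposite strand, at -66 and -35. The Slc26a4 region held neither, but had TATAAA at -31. Of 32851 mouse promoter windows of this length, 33.8% held CCAAT, 32.7% GGGCGG and 12.4% TATAAA. The element that Esrrb binds, searched as TCAAGGTCA and as its core AAGGTCA, was in 0 of the 5 windows of these 4 genes, against 0.387% and 4.08% of all windows. The E-boxes CACGTG and CATGTG were also in 0 of the 5, against 6.02% and 12.3%.

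The libraries held between 14457733 and 18288854 counted fragments. Markers of the cochlear lateral wall were present in every library: none of 6 marginal cell, 9 intermediate cell (melanocyte) and 7 lateral wall fibrocyte genes was at 0 anywhere. Hair cell markers were also above 0 in every library (9 genes). The 6 granule and neutrophil genes of marrow summed to 30400 to 50821 FPKM in 16 libraries, far above any cochlear list. Library control 2 stood apart. Its marrow myeloid sum was 7282 FPKM, the lowest of 17, while its sums of marginal cell markers (48.6 FPKM), intermediate cell markers (184 FPKM) and lateral wall fibrocyte markers (1455 FPKM) were the highest of 17. This was not particular to the lateral wall: control 2 was also the highest for hair cell (32.4 FPKM), supporting cell (80.3), Schwann cell (269), oligodendrocyte, cerebellar neuron, B lineage, bone (1304) and erythroid markers, the last at 4.68 times the mean of controls 1 and 3. A list of 6 cerebellar neuron genes separated the groups: it summed to 152, 416 and 161 FPKM in controls 1 to 3 and to between 3.53 and 45.9 FPKM in the 14 exposed libraries, where brimonidine 5 was the highest. The 5 astrocyte genes summed to 52.8, 91.2 and 101.9 FPKM in the controls against 31.2 to 53.6 FPKM after noise. The 5 oligodendrocyte genes reached 16.6, 35.3 and 15.9 FPKM against 5.53 to 16.6 FPKM. The 5 skeletal muscle genes summed to 170, 463 and 204 FPKM in the controls and to 265 to 810 FPKM after noise, so controls 1 and 3 lay below every exposed library, and 2 of the 5 genes were called higher in NE. The part of these other cell types in the differences from control was not tested, and in this design brain RNA and noise cannot be told apart.

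**Figure D1:**
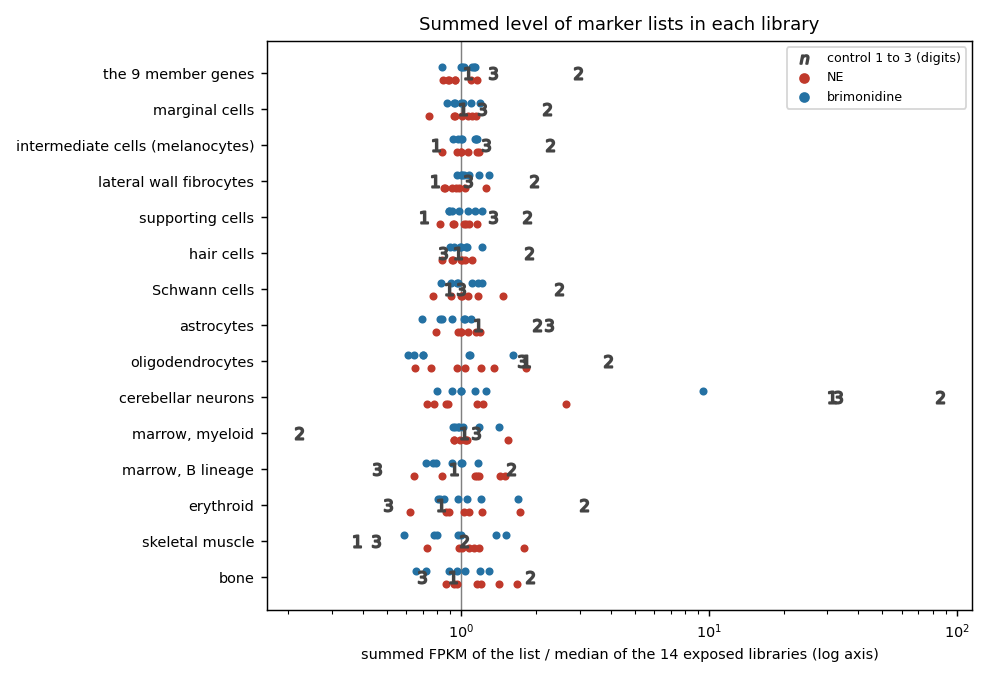
Summed FPKM of each marker list in each library, divided by the median of the 14 exposed libraries (log axis). Digits are controls 1 to 3, and red and blue points are NE and brimonidine libraries. Control 2 lies to the right for the 9 genes and the lateral wall lists and to the left for marrow myeloid genes, and all 3 controls lie far to the right for cerebellar neurons.

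Control 2 was also the highest of the 17 libraries for all 9 genes. Its level was 1.96 to 2.94 times the mean of controls 1 and 3 (median 2.41). Over the 14208 genes with at least 1 FPKM in the 3 controls the median ratio was 1.09, 6.43% had a ratio of at least 2.41, and control 2 was the highest library for 42.5%. The calls and the members with the largest differences from control are therefore given with and without it.

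Per length, Cldn11 and Atp1b2 were the most abundant of the 9 genes in the 14 exposed libraries, with mean levels of 39.0 and 34.3 FPKM. They were followed by Slc12a2 (26.7 FPKM), Slc26a4 (14.1), Kcnj10 (9.32), Kcne1 (5.71), Esrrb (4.23), Kcnq1 (2.36) and Bsnd (0.972). From Atp1b2 to Slc12a2 and for every pair below Kcnj10, neighbours kept this order in all 17 libraries. Cldn11 was above Atp1b2 in 12 of 17 libraries and in 0 of 3 controls, and these neighbours overlapped within the exposed groups. Slc26a4 was above Kcnj10 in 14 of 14 exposed libraries and in 1 of 3 controls.

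The subunits of the marginal cell potassium channel were measured at modest levels. Kcnq1 was at 1.72, 5.18 and 2.46 FPKM in controls 1 to 3. It ranged from 1.78 to 2.77 FPKM (median 2.25) in the NE group and from 2.02 to 2.81 (median 2.62) in the brimonidine group. Every exposed value of Kcnq1 lay inside the control range. Kcne1 was at 4.39, 14.3 and 5.68 FPKM in the controls, at 3.67 to 6.26 (median 5.95) in the NE group and at 5.28 to 6.90 (median 5.54) in the brimonidine group. The accessory subunit was above the pore in every library. The ratio of Kcne1 to Kcnq1 was 2.54 ± 0.22 (SD, n = 3) in controls, 2.44 ± 0.38 (SD, n = 7) after noise and 2.43 ± 0.29 (SD, n = 7) with brimonidine. Single libraries ran from 1.75 in NE 1 to 2.86 in brimonidine 3, and control 2, where both subunits were high, was at 2.75.

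Kcnj10 showed lower values after noise than most controls. It was at 9.44, 29.4 and 12.8 FPKM in controls 1 to 3, at 7.17 to 12.4 (median 8.73) in the NE group and at 7.46 to 10.9 (median 10.2) in the brimonidine group. In the NE group 6 of 7 libraries lay below the lowest control, the exception being NE 7 at 12.4 FPKM, and in the brimonidine group 2 of 7 did.

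Atp1b2 was the only member whose groups did not overlap. It was at 65.1, 191 and 65.0 FPKM in controls 1 to 3. In the NE group it ranged from 27.5 to 42.4 FPKM (median 31.8), and in the brimonidine group from 29.2 to 42.3 FPKM (median 36.2). Each of the 14 exposed libraries lay below each control, and the exposed groups overlapped each other throughout. Slc12a2, its partner in potassium uptake, was at 21.2, 53.9 and 29.6 FPKM in the controls, at 20.6 to 29.3 (median 25.8) in the NE group and at 23.1 to 31.8 (median 28.7) in the brimonidine group. Only NE 6, at 20.6 FPKM, lay below the lowest control for the cotransporter, and none lay above the highest.

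Bsnd was the faintest member, at 0.602, 2.03 and 1.08 FPKM in the controls, 0.694 to 1.39 (median 0.850) in the NE group and 0.748 to 1.11 (median 1.01) in the brimonidine group. These values rested on 24 to 85 fragments per library. The spread between brimonidine libraries, 13.4% of the mean, did not exceed the counting error of 14.4% at their median. It did in the NE group, at 26.1% against 15.6%, and in controls, at 58.7% against 14.4%. Slc26a4 did not follow the fall of Atp1b2. It was at 7.99, 21.2 and 13.3 FPKM in the controls, at 11.3 to 17.9 (median 14.8) in the NE group and at 10.3 to 16.4 (median 14.2) in the brimonidine group, with every exposed library inside the control range.

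Cldn11 was at 31.6, 78.8 and 49.0 FPKM in controls 1 to 3, at 32.0 to 44.2 (median 33.9) after noise and at 29.8 to 45.8 (median 43.7) with brimonidine. Esrrb was at 3.21, 8.29 and 4.60 FPKM in the controls, at 2.81 to 5.28 (median 4.45) in the NE group and at 3.78 to 4.63 (median 4.46) in the brimonidine group. Both genes overlapped between all groups, and Esrrb varied less among brimonidine libraries (7.91% of the mean) than among NE libraries (23.6%), a difference in spread that was not tested.

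**Figure D2:**
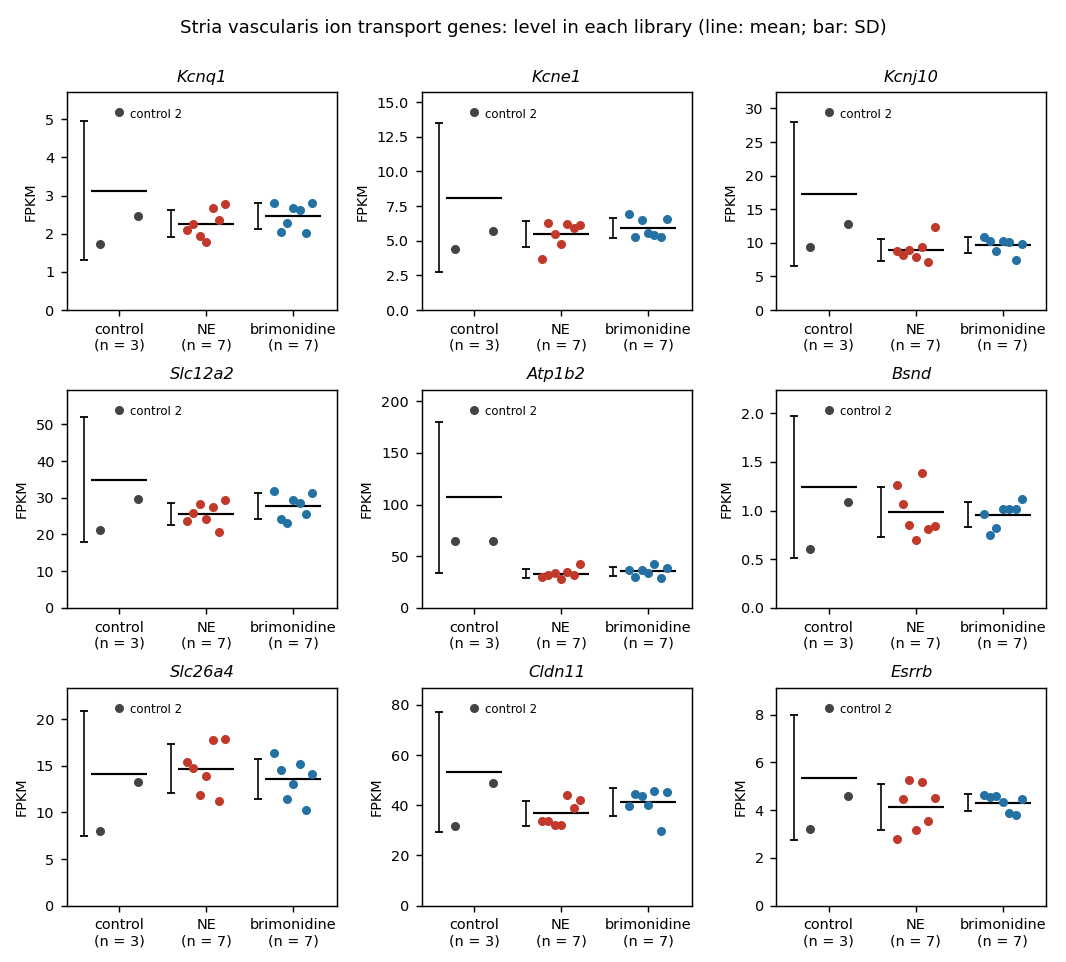
Level of each of the 9 genes in FPKM (linear axes from 0) in the control (n = 3), NE (n = 7) and brimonidine (n = 7) groups. Points are libraries, lines are group means and bars are SD. Control 2 is the highest point of every panel, and Atp1b2 is the only panel in which all controls lie above all exposed libraries.

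The first comparison asked which of these genes differed 2 days after noise. Of the 9 members, 1 was called lower in the NE group than in control, and 0 were called higher. A call required a change of at least 1 on the log2 scale in either direction and an adjusted p under 0.05 (limma on log2 of FPKM + 1, adjusted over all 15950 genes tested). Over all genes 5.49% were called lower and 0.270% higher. The called gene was Atp1b2, with a log2 fold change of -1.47 ± 0.29 (SE) and an adjusted p of 0.00692 by limma. That SE takes 1 spread for both groups, although Atp1b2 varied by 68.1% of its mean in controls and by 14.3% in NE. Its exact permutation p of 0.00833, two-sided, was the smallest that 7 against 3 libraries allow. Atp1b2 was also the 1 member with no overlap, which 15.0% of all genes showed in the lower direction. In bulk tissue, fewer cells of a type and less RNA per cell cannot be told apart.

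Kcnj10 was at -0.73 ± 0.27 (SE) on the log2 scale, with an adjusted p of 0.0937 by limma. The others lay between -0.44 for Cldn11 and 0.13 for Slc26a4, with adjusted p of 0.198 or more by limma. Altogether 8 of 9 values were below 0, and the median over the members was -0.34 against -0.04 over all genes tested, of which 43.9% lay above 0. Scaling moved the median over all genes by more than 0.1, from -0.04 as deposited to 0.06 with median-ratio scaling, where the median of the members was -0.22 and Atp1b2 stood at -1.35. With rescaling to the lateral wall fibrocyte markers the median was 0.12 over all genes and -0.13 over the members, where Bsnd changed sign. With array weights the members' median was -0.09, and Atp1b2, at -0.97, was no longer called. Under the alternatives that kept all libraries, Kcnj10 lay between -0.78 and -0.41, with adjusted p from 0.025 to 0.433 by limma. Cldn11 lay between -0.57 and -0.22 under them, with adjusted p from 0.0381 to 0.672 by limma.

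This pattern rested on control 2. Without it, 3 of 9 members had a value below 0, the median of the members was 0.06, and 5 members changed sign. Atp1b2 kept an adjusted p of 0.0014 by limma, but its log2 fold change of -0.96 ± 0.13 (SE) missed the minimum of 1, so that 0 members were called. Kcnj10 was at -0.28 without control 2 (adjusted p of 0.381 by limma) and at -1.05 without control 1 (adjusted p of 0.021 by limma), which then made it the second called member. Without control 2, Cldn11 was at -0.11 and Slc26a4 at 0.45, with adjusted p of 0.786 and 0.242 by limma.

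The brimonidine group was compared with the same 3 control libraries, so its differences share their errors with those of the NE group. Of the 9 members, 1 was called lower and 0 higher, against 5.56% and 0.169% of the 15947 genes tested. Atp1b2 again was the called gene, at -1.39 ± 0.29 (SE) on the log2 scale with an adjusted p of 0.00939 by limma. It alone showed no overlap, against 14.3% of all genes in that direction. Kcnj10 was at -0.63 ± 0.26 (SE), with an adjusted p of 0.114 by limma, and the other 7 lay between -0.28 for Cldn11 and 0.03 for Slc26a4. The median of the members was -0.23, against -0.03 over all genes. It was -0.12 with median-ratio scaling, -0.10 with rescaling to the lateral wall fibrocyte markers and -0.04 with array weights.

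Here too the direction depended on control 2. Without it, 7 of 9 members stood above 0, 6 had changed sign, and Atp1b2 was at -0.87 ± 0.12 (SE) with an adjusted p of 0.00185 by limma, short of the minimum change, so 0 were called. Kcnj10 was then at -0.18, Cldn11 at 0.05 and Slc26a4 at 0.35, with adjusted p of 0.46, 0.891 and 0.283 by limma. Leaving out brimonidine 5 as well, the exposed library with the highest sum of cerebellar genes, gave -0.92 ± 0.11 (SE) for Atp1b2.

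The last comparison asked whether brimonidine changed these genes after the same noise. None of the 9 members was called: limma called 0 of the 15707 genes tested at both thresholds, 1 gene (0.00637%) passed the adjusted p alone, and 5.77% had an unadjusted p under 0.05, among them 0 of the 9 members. The log2 fold changes of brimonidine against NE ran from -0.10 for Slc26a4 to 0.16 for Cldn11, and 7 of 9 were above 0, as were 57.7% of all genes. The median of the members was 0.09 against 0.01 over all genes. The 95% intervals were narrow. For Atp1b2 the value was 0.09 with an interval from -0.11 to 0.29, for Kcnj10 0.10 with an interval from -0.11 to 0.32, and for Cldn11 0.16 with an interval from -0.05 to 0.37. For Slc26a4 the interval ran from -0.35 to 0.14 and for Kcnq1 from -0.09 to 0.26. Across all 9 members the intervals stayed within -0.35 and 0.37, so changes of the minimum size used for calling lay outside each of them, while changes inside the intervals cannot be told from none at this spread.

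**Figure D3:**
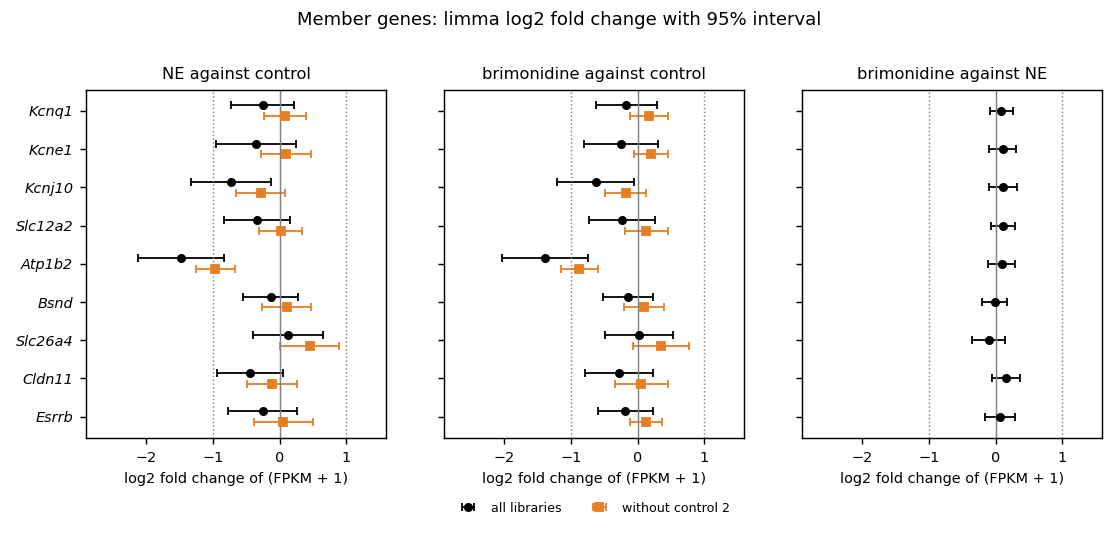
Log2 fold change of FPKM + 1 for the 9 genes in each comparison, with 95% intervals from limma. Black circles use all libraries, orange squares leave out control 2, and dotted lines mark the minimum change of 1. Atp1b2 lies left of 0 against control in both fits, most other genes cross to the right once control 2 is left out, and all values of brimonidine against NE lie near 0.

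Because all 9 genes shared the high level of control 2, each was also set against the other 8 in the same library. For this, each gene was centred on its mean log2(FPKM + 1) over the 17 libraries, and the median of the other 8 centred values was subtracted. On this relative scale Atp1b2 was at 1.00, 1.31 and 0.60 in controls 1 to 3, between -0.33 and -0.02 in the NE group and between -0.36 and 0.01 in the brimonidine group. Each exposed library lay below each control, with or without control 2, and the group difference was -1.17 for both NE and brimonidine. Kcnj10 was at 0.25, 0.56 and 0.24 in the controls and at 0.21 or lower in all exposed libraries, with group differences of -0.42 and -0.40. Slc26a4 moved the other way. It was at -0.39, -0.36 and -0.14 in the controls and at -0.09 to 0.38 in the NE group, a difference of 0.48 with no overlap, while its brimonidine libraries, at -0.23 to 0.22, overlapped the controls with a difference of 0.29. The exposed groups overlapped each other for Slc26a4. Over all genes tested, 6.82% lay lower without overlap in NE on this scale and 1.52% higher, and 8.23% lay lower in brimonidine. These relative values are given as descriptions, since the scale was chosen after the levels had been seen.

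Simple ratios of FPKM, which were not taken for Slc26a4, separated the groups for Atp1b2 but not for Kcnj10 in NE. The ratio of Atp1b2 to Slc12a2 was 2.94 ± 0.69 (SD, n = 3) in controls, 1.30 ± 0.14 (SD, n = 7) in the NE group and 1.28 ± 0.17 (SD, n = 7) in the brimonidine group. In controls 1 to 3 it was 3.06, 3.55 and 2.19, each above the highest exposed ratio of 1.57. Kcnj10 to Kcne1 was 2.15 ± 0.09 (SD, n = 3) in controls, with a range of 2.06 to 2.25. It was 1.68 ± 0.40 (SD, n = 7) in NE, where the highest library, at 2.38, exceeded all controls, and 1.64 ± 0.25 (SD, n = 7) in brimonidine, where the highest, at 1.95, lay below all controls. The ratio of Slc12a2 to Kcne1 was 4.61 in controls, 4.78 in NE and 4.70 in brimonidine, differences below its SD in each group. Atp1b2 and Kcnj10 are also transcribed in astrocytes, whose summed markers were higher in controls 2 and 3 than in any exposed library. Control 1, at 52.8 FPKM, lay within the exposed range of 31.2 to 53.6 FPKM for them. The part of those cells in these ratios was not tested.

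**Figure D4:**
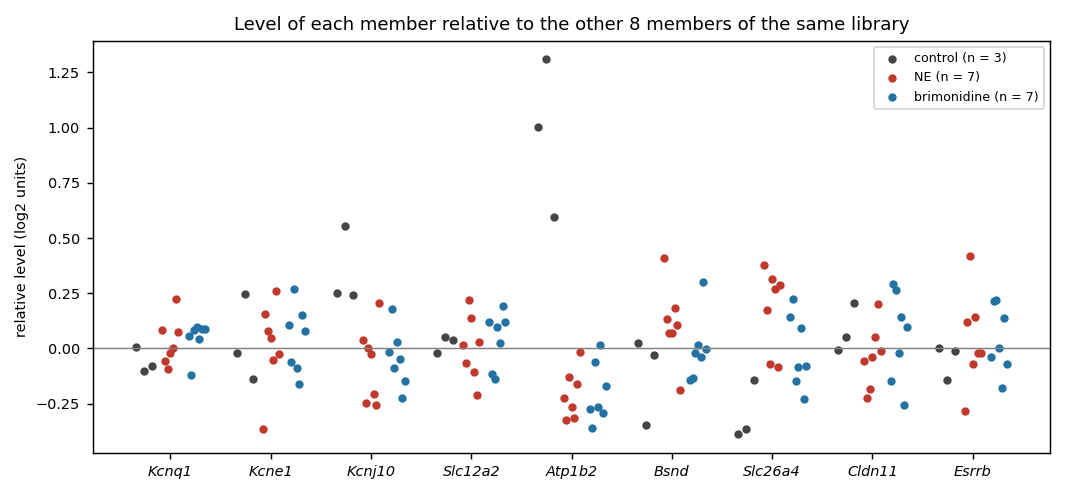
Level of each gene relative to the other 8 genes of the same library, in log2 units, for control (grey, n = 3), NE (red, n = 7) and brimonidine (blue, n = 7) libraries. Each point is a library. Atp1b2 and Kcnj10 lie higher in controls than in all exposed libraries, and Slc26a4 lies lower in controls than in all NE libraries.

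Other genes of endolymph ion transport were read from a list of 14, of which 10 passed the filter on low values. In NE against control 1 of the 10 was called lower and 0 higher, beside 5.49% and 0.270% of all genes tested. In brimonidine against control it was likewise 1 and 0, beside 5.56% and 0.169%. In both comparisons the called gene was Atp1b1, which encodes another beta subunit of the Na-K-ATPase. Atp1b1 was at 85.8, 217 and 93.8 FPKM in controls 1 to 3, at 44.8 to 70.4 FPKM in the NE group and at 46.8 to 74.2 FPKM in the brimonidine group. No exposed library reached a control, which 15.0% of all genes showed in that direction for NE and 14.3% for brimonidine. The part of other cell types in this difference was not tested. Its log2 fold change was -1.03 ± 0.27 (SE) in NE, with an adjusted p of 0.0275 by limma, and -1.03 ± 0.26 (SE) in brimonidine, with an adjusted p of 0.0237 by limma. Without control 2 these fell to -0.61 and -0.61, with adjusted p of 0.0745 and 0.0412 by limma, so Atp1b1 was no longer called. The call ended as well in both comparisons with array weights, with median-ratio scaling, with rescaling to the lateral wall fibrocyte markers and with the replicate block, and on leaving out NE 1, NE 4 or NE 6, or brimonidine 2 or brimonidine 3. Over all alternatives Atp1b1 lay between -1.27 and -0.61 in NE and between -1.28 and -0.61 in brimonidine.

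The sodium channel subunit gene Scnn1a was at 5.74, 4.65 and 7.00 FPKM in the controls and at 5.65 to 9.45 FPKM after noise, a log2 fold change of 0.31 ± 0.14 (SE) with an adjusted p of 0.144 by limma. Unlike the 9 members, it was lowest of all 17 libraries in control 2, without which the value was 0.19 (adjusted p of 0.513 by limma). Foxi1, which encodes a transcription factor of pendrin-expressing cells, was at 0.23 ± 0.18 (SE), with an adjusted p of 0.394 by limma, and at 0.19 without control 2. In brimonidine against control Scnn1a was at 0.28 on the log2 scale, with an adjusted p of 0.0923 by limma, and at 0.15 without control 2. Between brimonidine and NE 0 of the 10 genes were called, as were 0 of all 15707 genes tested.

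Among the exposed libraries, where no library stood apart as control 2 did, the 9 genes still varied together. With each group centred on its own mean, 35 of the 36 pairs of members had a positive Pearson correlation of log2(FPKM + 1) over the 14 NE and brimonidine libraries, with a median of 0.474 and a range from -0.053 to 0.805. Of 15698 other genes, 57.9% had a positive correlation with the mean standardized level of the 9 members, which is a different measure from the pairs. In NE 5 all 9 members lay above the NE mean and in NE 7 all but Bsnd, whereas in NE 4 none did. In the brimonidine group, brimonidine 7 had 9 members above the group mean and brimonidine 6 had 1. Kcnq1 followed the mean of the other 8 most closely (r = 0.837) and Bsnd least (r = 0.265), the latter on 35 to 67 fragments per library. These correlations are descriptions over 14 libraries that share tissue, dissection and sequencing.

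Summed markers of some other cell types moved with the members over the same 14 libraries, and others did so weakly. The correlation with the mean standardized level of the 9 genes was 0.834 for lateral wall fibrocytes, 0.818 for supporting cells, 0.768 for intermediate cells, 0.667 for marginal cells, 0.619 for astrocytes and 0.533 for hair cells. It was 0.347 for Schwann cells, 0.308 for bone, 0.270 for muscle, 0.224 for oligodendrocytes and 0.146 for cerebellar neurons. It was -0.209 for marrow B lineage genes, -0.479 for marrow myeloid genes and -0.599 for erythroid genes. The part of tissue composition in the shared variation was not tested.

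**Figure D5:**
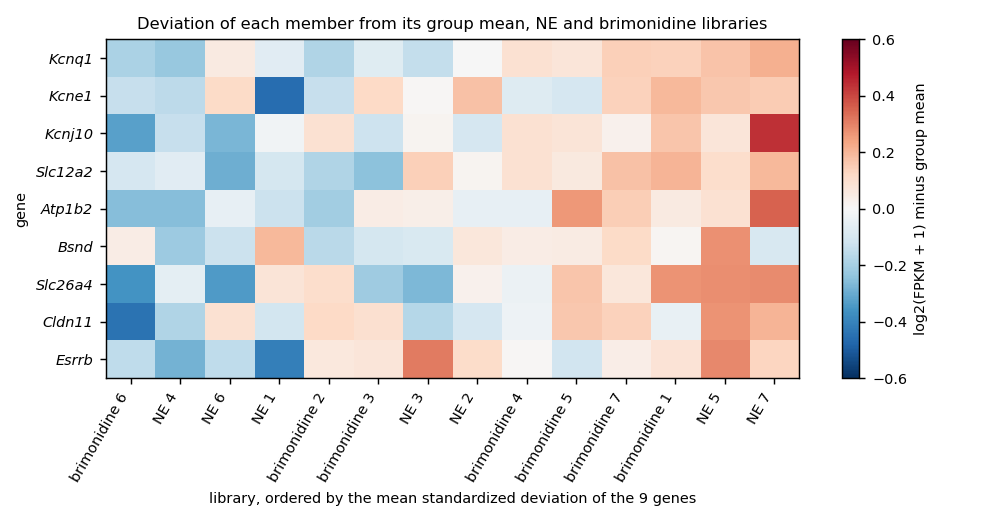
Difference of each gene from its group mean, in log2(FPKM + 1), in the 14 exposed libraries, ordered by the mean standardized deviation of the 9 genes. Red is above and blue below the group mean. NE 5 and NE 7 at the right are red for nearly all genes, and brimonidine 6 and NE 4 at the left are blue for nearly all.

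The genes most like the members over the 14 exposed libraries were Ephx1 (r = 0.927), Enpep (r = 0.919), Tbx2 (r = 0.912), Col4a5 (r = 0.893) and Prom2 (r = 0.888), followed by Tspan3, Usp11, Otoa, Msi1 and Zbtb10 down to r = 0.882. They were the top 10 of 15698 genes compared, and the median gene had r = 0.086. Ephx1 encodes an epoxide hydrolase, Enpep an aminopeptidase, Tbx2 a transcription factor of the developing inner ear and Col4a5 a basement membrane collagen. Otoa encodes otoancorin, which attaches the tectorial membrane to supporting cells, and is itself on the supporting cell list.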

How the data were processed

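Gene expression values were used as deposited by the authors, in FPKM, for 35285 genes in 17 libraries (3 control, 7 NE and 7 brimonidine). Per the labels, libraries were prepared with a stranded mRNA kit, and the submitters' processing notes name Trimmomatic, HISAT2, Cufflinks and HTSeq with the genome build mm10. The annotation release and the strand setting of the counting are not given in the sources used here. With the exon lengths of GENCODE M21, 91.05% of the values gave whole fragments within 0.01. For 2637 other genes, Kcne1 and Slc12a2 among them, the length was solved from the values themselves, as the shortest that made all libraries whole. The depths rest on the GENCODE lengths and the fragment counts on both.

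The study's methods used DESeq2, but since FPKM are not counts, log2(FPKM + 1) was tested with limma 3.58.1 (R 4.3.3) with an intensity trend, between pairs of groups, on genes that reached 1 FPKM in 3 or more of the libraries in the model. P-values were adjusted by Benjamini-Hochberg over all genes tested, and a gene was called at an adjusted p under 0.05 together with a change of 1 or more on the log2 scale, either way. All 9 members passed the filter in each comparison. Log2 fold changes of FPKM + 1 understate changes of low genes. The fit was tested on simulated data. The labels give each library as a separate sample and the methods 1 mouse each. P-values measure the spread between these mice.

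The members and all gene lists were chosen with earlier results of these data known. The level relative to the other members, the voom fit on recovered fragments and the rescaling to lateral wall fibrocyte markers were added after seeing the data. All members were named. Of the other ion transport genes, up to 3 with the smallest p in each direction were named (some of these are not reported here), and of the genes most like the members the top 10. Replicate numbers did not pair the libraries. No file was left out. Limma's intervals cover the spread between libraries, and counting errors cover counting only.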

Additional observations from a re-analysis of the deposited data

Results flagged for a closer look

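Each of the 9 genes was examined for a library far from the others in the NE and the brimonidine group, 18 combinations in all, of which chance alone marks about 1 in 20. In 2 of them a library stood apart. Kcnj10 was at 12.4 FPKM in NE 7, above the other NE libraries by more than Dixon's 95% limit for 7 samples. Cldn11 was at 29.8 FPKM in brimonidine 6, below the other brimonidine libraries by more than that limit. NE 7 was also among the libraries with most members above their group mean (8 of 9), and brimonidine 6 among those with fewest (1 of 9).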

How the results depend on the processing

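With array weights, which give control 2 less weight, the count of called members against control went from 1 to 0 in both NE and brimonidine, and it was 0 without control 2 and brimonidine 5 together, an alternative chosen after seeing the data. Leaving out 1 library at a time, the count of called members ranged from 0 (without control 2) to 2 (without control 1) in NE against control and from 0 (without control 2) to 1 in brimonidine against control. Replicate numbers paired no libraries: same-numbered libraries correlated between -0.230 and 0.084, in no pair above 0.1, and with the replicate block 0 members were called in either comparison. Atp1b2 then had an adjusted p of 0.244 and 0.193 by limma, and over all genes 0 were called for NE, and 234 lower and 2 higher for brimonidine, against 918 and 913 without the block. The number of called members did not change under the other alternatives: a pseudocount of 0.1, no filter, 4 rescalings, all 17 libraries in 1 model, robust eBayes, or limma voom on recovered fragments. Atp1b2 stayed negative under every alternative, from -1.73 to -0.96 in NE and from -1.64 to -0.87 in brimonidine. Against NE, brimonidine gave 0 called members throughout. Bsnd, at 24 to 85 fragments per library, is the member whose values carry most counting error.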
